A study of Ooceraea biroi with 96 samples.

Results

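Genes that lie side by side on one DNA strand, with little space between them, form tandem arrays. In the clonal raider ant Ooceraea biroi, 258 of 13553 annotated genes other than tRNA genes (1.9%) were members of 26 such arrays. An array was taken as a run of at least 7 consecutive genes on the same strand of one sequence, with each gap between neighbours under 3 kb. The rule used positions only and no expression value. Of the members, 190 were annotated as protein-coding and 68 as ribosomal RNA (rRNA) genes. The arrays lay on 12 of the 14 chromosomes and are numbered here along chromosomes 1 to 14.

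Brain RNA of single ants of clonal lineages B and M was sequenced, 1 brain per library, after newly hatched larvae had been fostered into colonies of either lineage. Groups are written as the ant's own genotype in its social environment, so that MinB is an ant of genotype M raised in an environment of lineage B. At an age of 1 day there were 7 BinB, 9 BinM, 14 MinB and 20 MinM brains, and at 8 days 10 BinB, 10 BinM, 12 MinB and 14 MinM brains. Per the labels each library is a separate individual, but they do not say which ants came from one colony, so p-values treat individuals as independent.

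Tandem arrays commonly arise when a gene is duplicated next to itself, for instance by unequal crossing over, and their members can keep one function, change it or decay. In ants, families of chemosensory receptors are well known for long tandem arrays, and most of those receptors act in antennae and other sense organs. Ribosomal RNA genes are also classic tandem repeats. The annotation used here pairs no product name with the gene identifiers, so no member is given a family or a role, and the tissue could not be checked against marker genes.

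Libraries held 10.7 to 26.96 megacounts (median 16.45), and all members together took 0.562% of the counts. By their correlation with other libraries of the same age, 9 of the 96 libraries stood apart, 3 of day 1 and 6 of day 8, with BinB day 1 replicate 9 and MinB day 8 replicate 8 the farthest. Several results that rest on them are given with and without them. Day 1 and day 8 libraries carry different forms of title, and age and set of libraries cannot be told apart. In whole brains, fewer cells of a type and less RNA per cell cannot be told apart either.

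The arrays were compact. The median gap between neighbours was 131 bases, 162 of the 232 gaps were under 500 bases, and 17 were below 0, where spans overlapped. Arrays 4 and 5 on chromosome 2 held nothing but rRNA genes, 12 and 48 of them, and array 19 on chromosome 10 held 8 rRNA genes beside 3 protein-coding genes. The rRNA members were 118 to 120 bases long. The other 23 arrays were wholly protein-coding.

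Neighbours in the protein-coding arrays resembled each other in exon number, which the rule did not use. Of 166 adjacent protein-coding pairs, 28.3% had equal exon numbers and 55.4% differed by at most 1. The same shares were 17.5% and 34.8% in shorter runs of 4 to 6 genes built in the same way, and 12.3% and 28.8% in runs of 2 or 3. In arrays 2, 11, 20 and 21 the most frequent exon number was 9, found in 5 of 7, 6 of 10, 6 of 12 and 6 of 9 members. In array 23, 7 of 10 members had 5 exons. These are descriptions of the gene models, and no protein or gene sequence was used here to measure likeness.

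Few array members were detected in brain. Of the 258 members, 65 had no count in any library, 64 of them rRNA genes. The other 4 rRNA genes had at most 3 counts each over all 96 libraries, 8 counts in all. The libraries were made with an mRNA kit, and its part in the low rRNA counts was not tested. At least 1 count in 50% of the libraries was reached by 98 members (38%). The filter of edgeR for genes with enough counts to test (filterByExpr, minimum count 10, 8 groups) was passed by 83 members (32.2%), all of them protein-coding.

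That share lay far below the share elsewhere. Of the protein-coding members 43.7% passed, against 79.5% of the 11737 protein-coding genes outside arrays and 72.7% of the 876 protein-coding genes in runs of 4 to 6. The median length-normalised level (RPKM, CPM divided by exon length in kb, where CPM is a count scaled to library size) was 0.0385 in protein-coding members and 8.57 in all protein-coding genes. A mean of at least 1 CPM was reached by 61 members, 23.6%, against 66.3% of all genes other than tRNA genes. Among protein-coding genes alone the shares were 32.1% of members and 73.2% of genes outside arrays. The filter looks for enough counts in a number of libraries set by the smallest group, and the tests below do not cover the members that failed it.

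**Figure D1:**
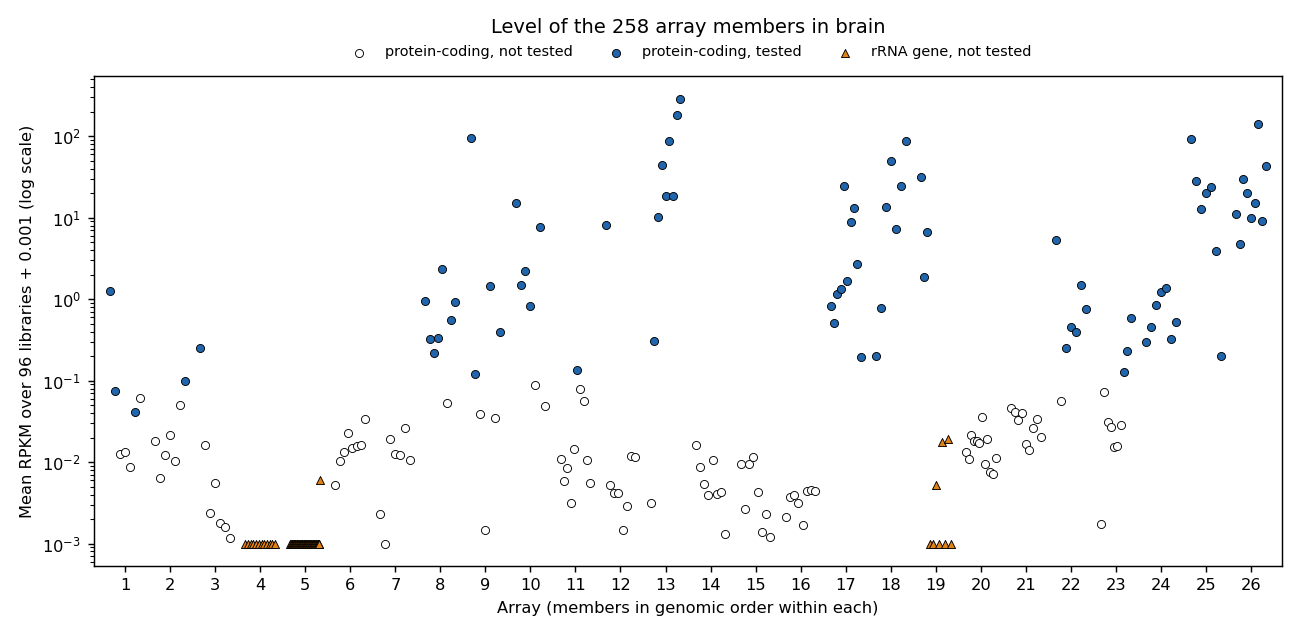
Mean level of each of the 258 members over 96 libraries (RPKM + 0.001, log scale) by array, with members in genomic order. Filled circles passed the filter on low counts, open circles are protein-coding members that did not, and triangles are rRNA genes. Arrays 6, 7, 14, 15, 16, 20 and 21 have no filled circle, and in arrays 17, 18, 24, 25 and 26 every circle is filled.

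Detection went by array, as the plot of levels by array shows. In 9 arrays no member passed the filter, and in 5 arrays (17, 18, 24, 25 and 26, 40 members) every member did. The other 12 arrays lay between, and 4 of them (2, 3, 11 and 12) had 1 tested member. The 9 arrays with no tested member were the rRNA arrays 4 and 5 and the protein-coding arrays 6, 7, 14, 15, 16, 20 and 21.

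The 60 members of those 7 protein-coding arrays had a median of 0.0223 CPM, and the highest mean among them was 0.15 CPM. Together they summed to 2.06 CPM, or 3326 counts over all libraries. The median member had a count in 19 of the 96 libraries. Arrays 14 and 15, of 8 genes each on chromosome 7, were separated by 0.401 kb and by 1 gene on the other strand that lies within the last member of array 14. Array 16 with 8 more genes followed 139 kb further on. The leading member of array 14, LOC105277513, had a mean of 0.0153 RPKM, that of array 15, LOC105275925, 0.0106 RPKM, and that of array 16, LOC105287092, 0.00358 RPKM. Arrays 20 and 21 on chromosome 10, with 12 and 9 members, were 71.5 kb apart and led by LOC105285741 (0.0350 RPKM) and LOC105285769 (0.0457 RPKM). LOC105284971 led array 6 with 0.0330 RPKM and LOC109610831 led array 7 with 0.0249 RPKM.

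Detection also went with exon number. Among protein-coding members with 8 to 10 exons, 5 of 60 passed the filter (8.33%), against 1721 of 1991 such genes outside arrays (86.4%). Of the protein-coding members with other exon numbers, 78 of 130 passed (60.0%). Neighbouring arrays could differ. On chromosome 12, arrays 23 and 24 lie 34.8 kb apart, and 3 of 10 members passed in array 23 against 7 of 7 in array 24.

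In several arrays 1 gene took most of the summed CPM, a share that also depends on exon length. LOC105284146 took 99.5% of the summed CPM of array 12 (16.1 CPM, 8.13 RPKM), while none of the other 7 members passed the filter. LOC105287764 took 97.9% of array 9 (494 CPM, 96.4 RPKM). LOC105280993 took 92.5% of array 10 (268 CPM, 15.2 RPKM). Per length the lead was smaller there, since its exons span 17602 bases, and LOC105280987 with 650 bases had 7.76 RPKM. LOC105288100 took 88.4% of array 19 (102 CPM, 31.5 RPKM). LOC105288150 took 83.9% of array 1 (6.30 CPM, 1.27 RPKM).

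Summed levels differed widely between arrays, also among those with every member tested, from 15.6 CPM in array 24 to 1311 CPM in array 18. Array 13, with 8 of 9 members tested, summed to 1585 CPM and was led per length by LOC105284491 (289 RPKM), the highest member of any array on that scale. In array 18, LOC105288103 gave 84.4% of the sum (1106 CPM, 87.6 RPKM). Array 26 summed to 872 CPM and was led by LOC105283023 (140 RPKM), and array 25 to 533 CPM, led by LOC105277282 (92.0 RPKM). In array 17 (340 CPM) LOC105284676 led per length with 24.5 RPKM. The leaders of the remaining arrays were LOC105280503 in array 22 (5.38 RPKM), LOC105283567 in array 8 (2.38 RPKM), LOC105282244 in array 24 (1.37 RPKM), LOC105281875 in array 23 (0.591 RPKM), LOC105281740 in array 3 (0.250 RPKM), LOC113562060 in array 11 (0.135 RPKM) and LOC105283339 in array 2 (0.0967 RPKM).

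Overlapping gene models limit some of these values. Exons of 42 members overlap an exon of another gene on either strand, and 17 of these are among the 83 tested. The sources used here do not state the strand setting, so reads of an overlapping gene on the other strand cannot be told apart from a member's own. They also do not state how reads that match several copies were counted, and near-identical copies may have lost or shared reads. Levels of members in close copies are therefore uncertain.

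Genotype effects on the members were examined first. Within each age, M was compared with B over both environments in a 4-group model with edgeR's quasi-likelihood test, and genes with a Benjamini-Hochberg adjusted p under 0.05 over all genes tested were called. At day 1, 16 of 77 tested members differed, 8 higher and 8 lower in M, where 14.8% of all tested genes were called (7.24% higher and 7.52% lower). At day 8, 16 of 71 differed, 6 higher and 10 lower in M, where the background was 8.45% (4.16% higher and 4.29% lower). The median absolute log2 fold change was 0.18 in members against 0.10 in all tested genes at day 1, and 0.13 against 0.08 at day 8. Here and below these medians are not matched for level, and a larger value in members is not read as a stronger effect. The calls fell in 11 arrays at day 1 and in 8 arrays at day 8. Of the 16 calls of day 1, 7 were made in each of 50 fits that left out 1 library, and of those of day 8, 15 were made in each of 46.

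Members called at both ages in the same direction numbered 5 of 69, 2 higher and 3 lower in M, against a background of 3.77% (1.75% higher and 2.02% lower). They were LOC113562844 of array 19, LOC105277289 and LOC105277286 of array 25, and LOC105280511 and LOC105280507 of array 22.

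LOC113562844 (chromosome 10, array 19, 4 exons) was counted almost only in genotype M. In all 16 B brains of day 1 it had 0 counts, while the 34 M brains of day 1 ranged from 1.63 to 4.12 CPM with a median of 2.85. In the 20 B brains of day 8 it had 3 counts in all, in 2 libraries, while the 26 M brains ranged from 1.45 to 4.83 CPM with a median of 3.24. The genotypes did not overlap at either age, and both M groups of day 1 had like medians, 2.80 CPM in MinB and 2.91 in MinM. Against a floor of 3 counts over the 16 B libraries (0.0109 CPM), the level in M was at least 272-fold higher at day 1. At day 8 the ratio of pooled CPM was 369, with a 95% counting interval of 126 to 1790 that covers counting error only. The adjusted p of edgeR's quasi-likelihood test was 1.98e-27 at day 1 and 3.78e-27 at day 8.

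Its protein-coding neighbours in array 19 did not share this pattern. LOC105288100 ranged from 92.5 to 112 CPM in B brains of day 1 (median 98.9) and from 86.7 to 112 in M brains (median 100), a log2 fold change of -0.02 ± 0.03 (SE) with an adjusted p of 0.758. LOC105288098 was called lower in M at day 1 (-0.35 ± 0.11, adjusted p 0.0205), but without BinB replicate 9, at 40.3 CPM where the next B brain had 14.6, the value was -0.12 and the adjusted p 0.228. The 8 rRNA genes of the array had at most 3 counts each.

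**Figure D2:**
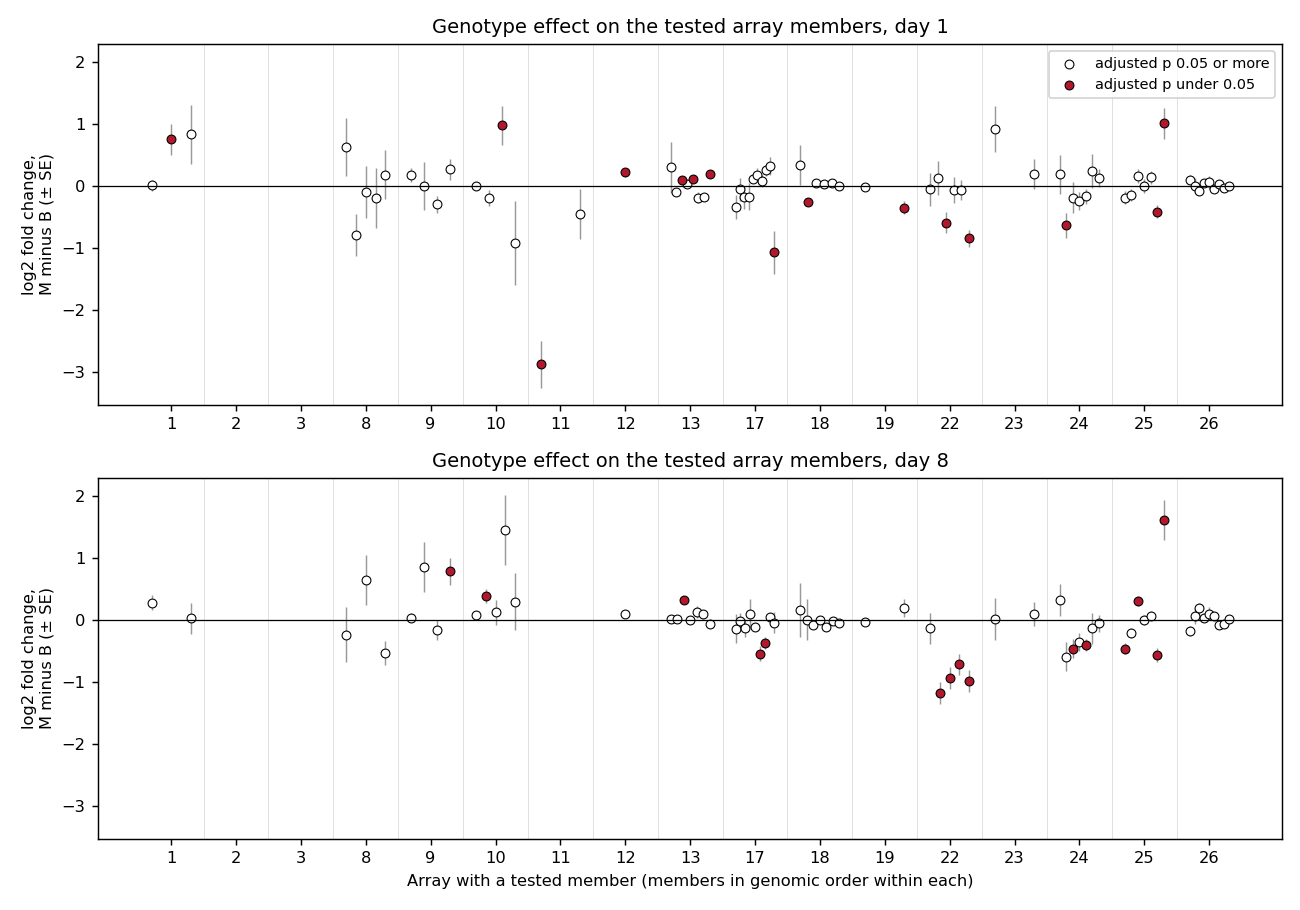
Log2 fold change of M minus B with its SE for each tested member by array, at day 1 (top) and day 8 (bottom). Filled points have an adjusted p under 0.05. LOC113562844 of array 19, near 0 in B, is not drawn, since its fitted fold has no interpretable size. At day 8 the 4 filled points of array 22 all lie below 0, and array 26 has no filled point at either age.

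Array 22 (chromosome 12, 3446053 to 3485635, plus strand, 7 genes, most with 2 exons) held 4 genotype calls at day 8, as many as array 25. Of its 5 members tested at that age, 4 were lower in M, and at day 1 2 of 6 were. LOC105280511 ranged from 1.28 to 5.69 CPM in B brains of day 1 (median 3.09) and from 0.840 to 2.68 in M brains (median 1.59). At day 8 it ranged from 0.531 to 3.67 in B (median 2.39) and from 0.281 to 2.27 in M (median 1.12). The ranges overlapped at both ages, with M centred lower in both environments. The log2 fold change was -0.84 ± 0.13 at day 1 (edgeR adjusted p 3.74e-06) and -0.98 ± 0.17 at day 8 (5.26e-05).

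LOC105280507 of the same array had a median of 4.86 CPM in B brains of day 1 (2.53 to 10.4) and 3.15 in M brains (1.01 to 8.62). At day 8 the medians were 1.58 in B (0.817 to 3.49) and 0.807 in M (0.196 to 1.61). All but 1 of the M brains of day 8 lay below the B median. The log2 fold change was -0.59 ± 0.17 at day 1 (adjusted p 0.0167) and -1.17 ± 0.17 at day 8 (adjusted p 1.49e-06). Without BinM day 1 replicate 3, the brain at 10.4 CPM, the day 1 value was -0.48 with an adjusted p of 0.0528.

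The other 2 members of array 22 lower in M at day 8 were LOC105280508 (-0.93 ± 0.18, adjusted p 0.000162) and LOC105280510 (-0.71 ± 0.17, adjusted p 0.00378). At day 1 their values were -0.06 ± 0.21 and -0.06 ± 0.16, with adjusted p of 0.878 and 0.814. The difference between ages was itself called for LOC105280508 (-0.88 ± 0.28, adjusted p 0.0412) and not for LOC105280510 (-0.66 ± 0.23, adjusted p 0.0656). Without BinB day 1 replicate 9 the former was -0.77 with an adjusted p of 0.0934. LOC105280503, the first and most abundant gene of the array, did not pass at day 1 (-0.05 ± 0.27) or day 8 (-0.13 ± 0.25).

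**Figure D3:**
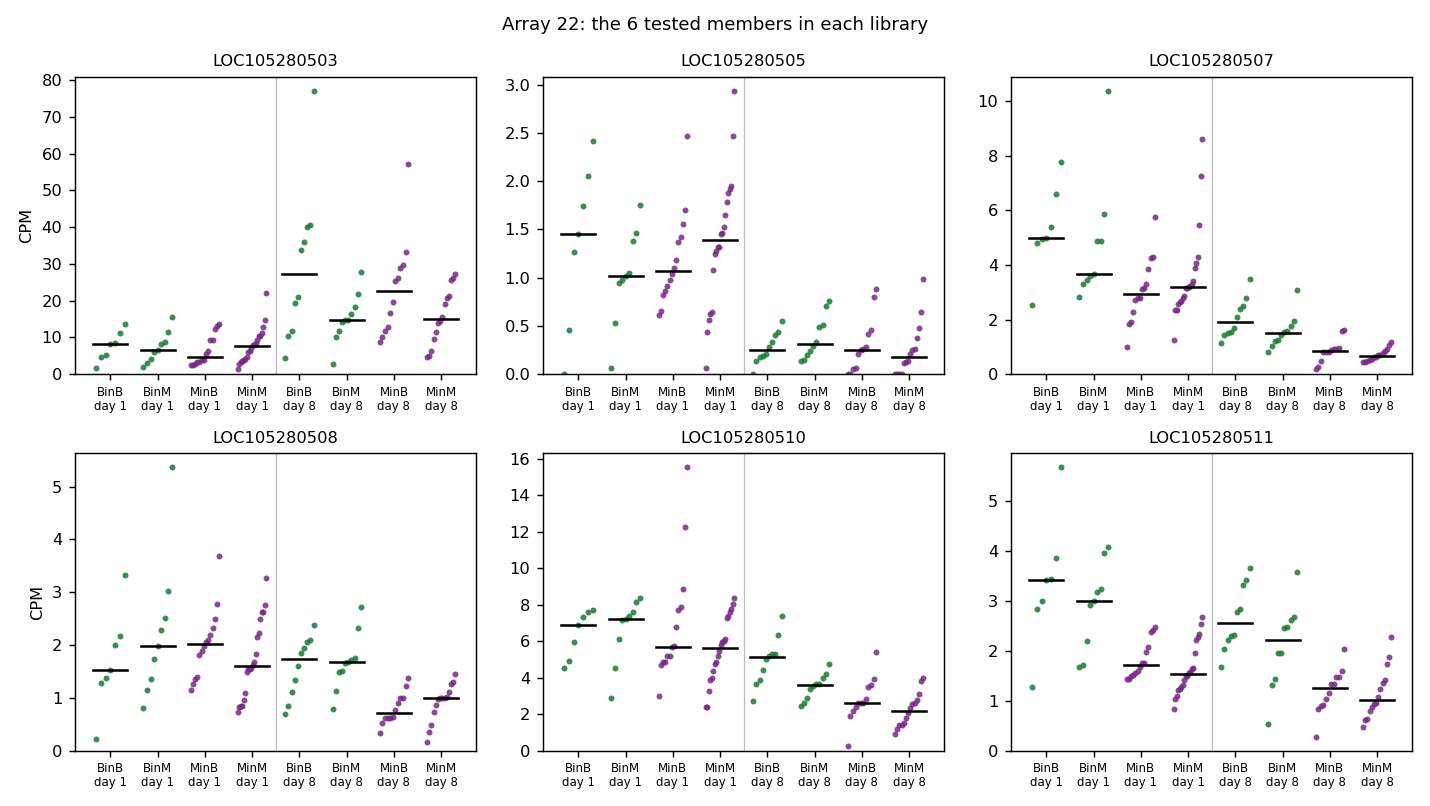
CPM of the 6 tested members of array 22 in each of the 96 libraries, by group (genotype B in green, M in purple), with a bar at each group's median. LOC105280503 rises from a median of 6.47 CPM at day 1 to 17.5 at day 8, and the other 5 fall, while at day 8 LOC105280507, LOC105280508, LOC105280510 and LOC105280511 have lower medians in both M groups than in both B groups.

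Array 25 (chromosome 13, 7884849 to 7913695, plus strand, 7 genes) had calls in both directions. LOC105277289, the lowest member, ranged from 0.0 to 0.669 CPM in B brains of day 1 (median 0.226) and from 0.171 to 1.32 in M brains (median 0.5). At day 8 the medians were 0.157 in B (0.0580 to 0.564) and 0.577 in M (0.0 to 1.72). The genotypes overlapped at both ages at these low levels. It was higher in M by 1.01 ± 0.25 at day 1 (adjusted p 0.00361) and 1.62 ± 0.32 at day 8 (adjusted p 0.000361) on the log2 scale.

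LOC105277286 of array 25 went the other way. Its medians were 9.13 CPM in B (5.90 to 14.1) and 7.34 in M (3.41 to 11.3) at day 1, and 12.1 in B (4.73 to 19.7) and 7.50 in M (5.15 to 15.2) at day 8. The ranges overlapped widely, and the log2 fold changes were -0.41 ± 0.11 (adjusted p 0.00511) and -0.56 ± 0.12 (adjusted p 0.00065). At day 8 the leader of the array, LOC105277282, was also lower in M (-0.46 ± 0.09, adjusted p 0.000181), and LOC105277290 was higher (0.31 ± 0.07, adjusted p 0.00363).

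Array 26 (chromosome 14, 9 genes, all tested) had no genotype call at either age, with log2 fold changes between -0.08 and 0.10 at day 1 and between -0.17 and 0.19 at day 8. Array 8 also had none, with 5 members tested at day 1 and 3 at day 8. In array 11 the 1 called member, LOC113562060 (10 exons), had a median of 0.939 CPM in B brains of day 1 (0.0526 to 2.16) and 0.0845 in M brains (0.0 to 0.569), a log2 fold change of -2.88 ± 0.38 (adjusted p 9.18e-08). In the B brains of day 8 it had a median of 0.307 CPM, and 23 of the 26 M brains had no count. It did not pass the filter of the day 8 model.

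Several other calls were small or rested on few libraries. In array 13, LOC105284491 was higher in M at day 1 by 0.20 ± 0.06 (adjusted p 0.0127), with medians of 436 CPM in B (225 to 505) and 485 in M (384 to 668). Its neighbours LOC105287465 and LOC105284493, at 0.10 and 0.12, were called with adjusted p of 0.0482 and 0.0496, and lost the call in 34 and 38 of the 50 fits that left out 1 library. In array 24, LOC105282252 was lower in M at day 1 (-0.64 ± 0.21, adjusted p 0.0288), and without BinB replicate 4 the adjusted p was 0.0786. The day 8 call of LOC105282256 in that array (-0.46 ± 0.15, adjusted p 0.0489) was lost in 28 of 46 such fits. Other day 8 calls were made in each of the 46 fits. LOC105287758 of array 9, LOC105280990 of array 10 and LOC105284499 of array 13 were higher in M. LOC105284683 and LOC105284682 of array 17 and the leader of array 24, LOC105282244, were lower. Their largest adjusted p over these edgeR fits was 0.0371, for LOC105280990.

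The next comparison asked how the members differed between 1-day-old and 8-day-old ants, over all 4 combinations of genotype and environment. In an 8-group fit, 57 of 83 tested members differed with age, 25 higher and 32 lower at day 8, where 73.1% of all tested genes were called (37.6% higher and 35.4% lower). The members' share of calls was thus near the background. With scaling to library totals, which moved the all-gene median of log2 fold changes from 0.01 to 0.14, the split of members was 34 higher and 25 lower. The shares of all genes called under that scaling are not given here, so this split has no background beside it. Falls of at least 2-fold were found in 11 of 83 members against 6.29% of all tested genes, and rises of at least 2-fold in 2 against 3.46%. The median absolute log2 fold change was 0.37 in members and 0.26 in all genes tested. Of the 57 calls, 50 were made in each of 9 fits that left out 1 of the 9 outlying libraries.

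**Figure D4:**
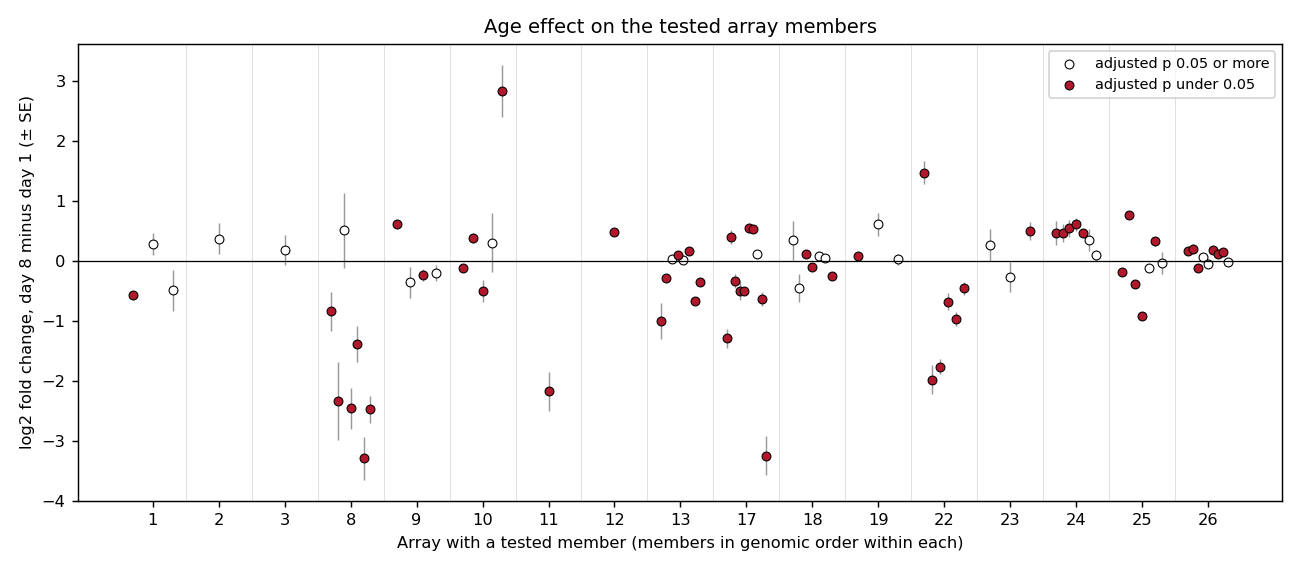
Log2 fold change of day 8 minus day 1 with its SE for each tested member by array. Filled points have an adjusted p under 0.05. In array 8, 6 of 7 points are filled and below 0, in array 22 5 lie below 0 and 1 above, and in array 24 5 of 7 are filled and above 0.

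Direction differed from array to array. Of the 17 arrays with a tested member, 4 had rises alone, 3 had falls alone and 8 had both. Arrays 8 and 22 had the same counts of rises and falls under DESeq2 size factors and library totals. With library totals the falls of arrays 9 and 10 were lost, which left 1 rise in array 9 and 2 in array 10, and array 17 had 4 rises and 5 falls. The fall in array 9, of LOC105287787, was also lost without BinB day 1 replicate 9 (-0.22, edgeR adjusted p 0.0579). Adjacent members called with age changed in the same direction in 21 of 31 pairs (67.7%), beside 65.0% of 246 such pairs in runs of 4 to 6 genes and 61.4% of 1019 in runs of 2 or 3.

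Array 8 (chromosome 4, 266686 to 307496, minus strand, 8 genes) fell in most of its members. At day 8, 6 of its 7 tested members were lower, with a median log2 fold change of -2.34. The summed CPM of the array had a median of 14.8 in the 50 brains of day 1 (1.27 to 152) and 5.585 in the 46 brains of day 8 (0.620 to 29.7). The ages overlapped, and brains of one group differed widely, from 1.27 to 152 among the MinB brains of day 1.

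LOC105283568, at the higher-coordinate end of array 8, had a median of 4.94 CPM at day 1 (0.784 to 63.8) and 1.20 at day 8 (0.211 to 3.85). Every value above 3.85 CPM was from day 1, and both genotypes held such brains. The log2 fold change was -2.48 ± 0.23 (edgeR adjusted p 4.45e-17). LOC105283567, the most abundant gene of the array, had a median of 5.56 CPM at day 1 (0.181 to 58.5) and 2.38 at day 8 (0.0 to 24.4), a log2 fold change of -1.39 ± 0.30 (adjusted p 2.14e-05).

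The other called members of array 8 were lower still in level. LOC105283565 fell from a median of 0.713 to 0.0944 CPM (-3.30 ± 0.36, adjusted p 6.62e-14), and LOC105283564 from 0.919 to 0.129 (-2.46 ± 0.34, adjusted p 3.86e-10). LOC109611257, at the other end, fell by 0.84 ± 0.32 on the log2 scale (adjusted p 0.0162), a call that was lost without MinB day 1 replicate 12 (-0.65, adjusted p 0.0504), and 1 of its exons overlaps a gene on the other strand. LOC105283562, at 0 in 26 of 50 brains of day 1 and 37 of 46 of day 8, was called as well (adjusted p 0.000964), though it did not pass the filter in 2 of the 9 fits that left out a library. BinB day 1 replicate 2 stood at 17.5 CPM where the next brain of day 1 had 1.96. None of those fits left that brain out. In M brains the mean of LOC105283562 was 0.178 CPM at day 1 and 0.26 at day 8. Its genotype difference was called as differing between ages (4.80 ± 1.34, adjusted p 0.0249).

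Array 8 also held the members with the strongest single brains. Among members whose highest library had at least 20 CPM, the 3 with the largest ratio of the highest to the next library were all of array 8. LOC105283567 reached 58.5 CPM in MinM day 1 replicate 19 (next 30.2, ratio 1.93). LOC105283568 and LOC109611257 reached 63.8 and 38.8 CPM in the same brain, MinB day 1 replicate 12 (next 34 and 20.8, ratios 1.88 and 1.87), which is 1 of the 9 outlying libraries.

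In array 22, 5 of 6 tested members fell and 1 rose. LOC105280507 fell from a median of 3.30 CPM at day 1 (1.01 to 10.4) to 0.997 at day 8 (0.196 to 3.49), a log2 fold change of -1.77 ± 0.13 (adjusted p 2.09e-23), the smallest p of any member in this contrast. LOC105280510 fell from 5.99 (2.38 to 15.5) to 2.99 (0.226 to 7.37), by 0.97 ± 0.12 (adjusted p 3.15e-12). LOC105280505, from 1.27 to 0.252 CPM, had a log2 fold change of -1.98 ± 0.24 (adjusted p 2.01e-12). The ages overlapped for each of these genes.

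The first gene of the array moved against its neighbours. LOC105280503 rose from a median of 6.47 CPM at day 1 (1.42 to 22) to 17.5 at day 8 (2.83 to 77.0), a log2 fold change of 1.46 ± 0.19 (adjusted p 6.57e-11). It made up 53.5% of the array's CPM, and the array's sum had medians of 23 CPM at day 1 (11.3 to 39.4) and 25.5 at day 8 (7.91 to 87.6). By group the medians of the sum went from 23.8 to 40.4 CPM in BinB, from 26.2 to 24.7 in BinM, from 21.7 to 28.7 in MinB and from 22.1 to 19.1 in MinM. These group differences in the sum were not tested. The plot of array 22 by library shows both movements.

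Array 24 (chromosome 12, 8772469 to 8810716, plus strand) rose. Of its 7 members 5 were higher at day 8 and none was lower, and the summed CPM had a median of 13.4 at day 1 (7.02 to 21.3) and 17.5 at day 8 (10.8 to 25.4). LOC105282255 rose from a median of 2.15 CPM (0.824 to 3.86) to 3.41 (0.413 to 5.16), by 0.60 ± 0.10 on the log2 scale (adjusted p 2.1e-07), and the leader LOC105282244 from 5.89 (2.96 to 8.79) to 8.26 (3.56 to 13.5), by 0.45 ± 0.08 (adjusted p 2.43e-07). The 5 log2 fold changes ranged narrowly, from 0.45 to 0.60. Exons of LOC105282255 and LOC105282256 overlap other genes, and the call of LOC105282257 (0.46 ± 0.21, adjusted p 0.0392) was lost in 2 of the 9 fits without an outlying library.

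In array 17 (chromosome 9, 10 members, all tested) 3 rose and 6 fell. LOC105284671 fell from a median of 4.10 CPM (1.51 to 12.1) to 1.79 (0.208 to 5.99), by 1.30 ± 0.15 on the log2 scale (adjusted p 2.42e-12). LOC105284678, at 0.331 CPM the lowest gene of the array, fell from a median of 0.434 CPM to 0.0, with no count in 25 of the 46 brains of day 8 (-3.25 ± 0.32, adjusted p 6.95e-16), and its exons overlap a gene on the other strand. LOC105284682 rose from a median of 24.3 CPM (12.4 to 39.2) to 34 (14.2 to 56.2), by 0.53 ± 0.07 (adjusted p 7.7e-11).

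Array 10 (chromosome 5) held the largest rise. LOC105280987, a gene of 2 exons, had a median of 0.309 CPM at day 1 (0.0 to 39.2) and 4.46 at day 8 (0.378 to 41.6), a log2 fold change of 2.83 ± 0.44 (adjusted p 1.48e-08). Every day 8 group lay higher in its median than every day 1 group, and 1 BinB brain of day 1, replicate 2, stood at 39.2 CPM where the next BinB brain had 0.143. Single brains of day 8 also reached 34.1 to 41.6 CPM, in each of the 4 groups.

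**Figure D5:**
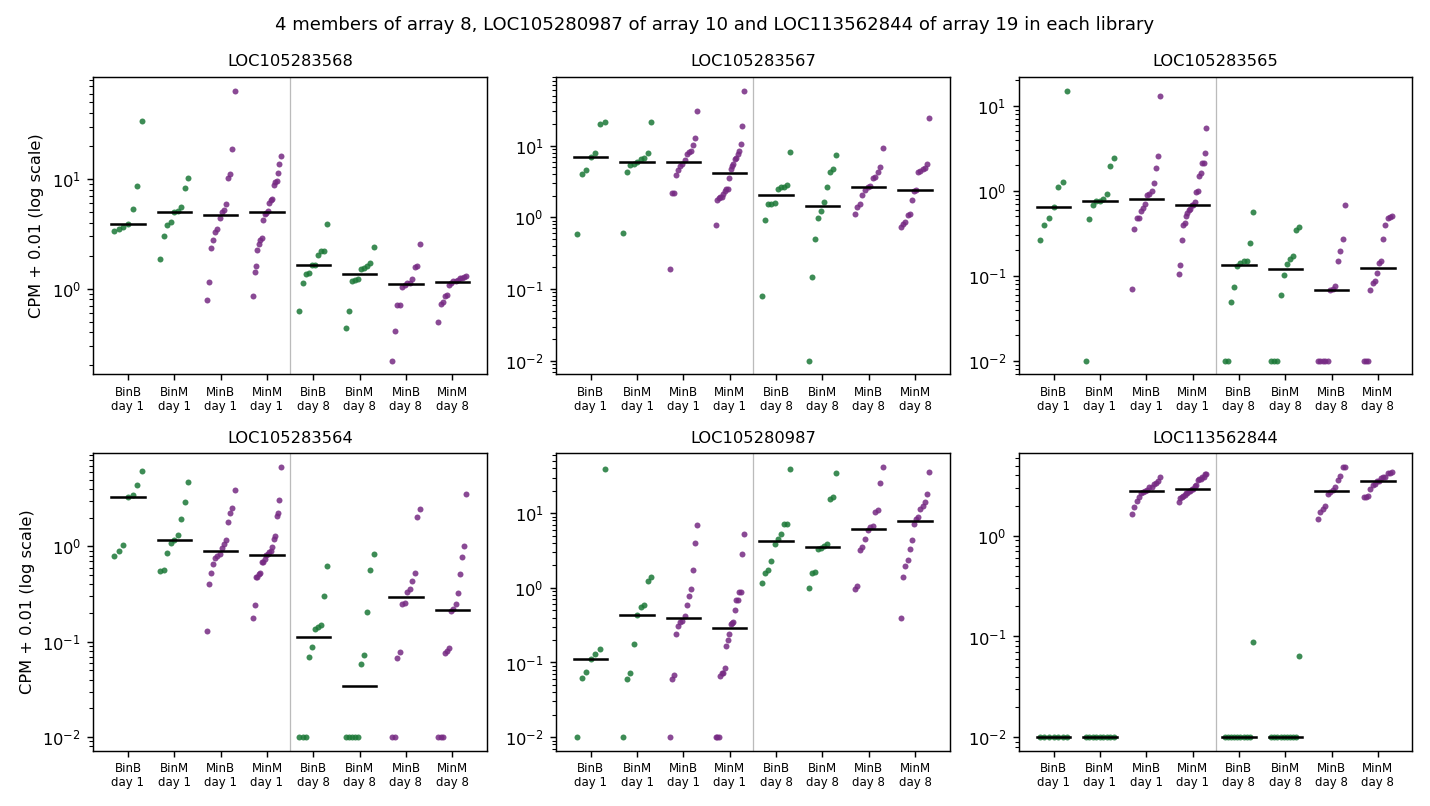
CPM + 0.01 (log scale) in each of the 96 libraries, by group (genotype B in green, M in purple), of 4 members of array 8, of LOC105280987 of array 10 and of LOC113562844 of array 19, with a bar at each group's median. The 4 members of array 8 sit lower at day 8 in each group's median, LOC105280987 sits higher, and LOC113562844 separates the genotypes at both ages.

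Other rises by the naming rule were in arrays dominated by abundant genes. LOC105287764 of array 9 rose from a median of 396 CPM (230 to 674) to 624 (365 to 737), by 0.60 ± 0.07 (adjusted p 4.18e-13). LOC105277283 of array 25 rose from 80.0 (46.3 to 189) to 136 (94.9 to 210), by 0.77 ± 0.07 (adjusted p 9.7e-19). Both sets of values overlapped between ages. Its neighbour LOC105277285 in array 25 fell, from 102 to 54.2 CPM (-0.92 ± 0.07, adjusted p 6.37e-22), so that array 25 had 2 rises and 3 falls, or 2 and 4 with DESeq2 size factors and 2 and 2 with library totals.

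The abundant array 26 changed little, with 5 of 9 members higher by at most 0.19 on the log2 scale, and 1 lower. The lower one, LOC113563388, lost its call in 4 of the 9 fits without an outlying library. LOC113563348, among the higher, lost its call in 2 of them. With library totals 7 were higher and none was lower. In array 13, 2 members rose and 4 fell, and the rise of LOC105284494 lost its call in 2 of the 9 fits without an outlying library. The lowest p was that of LOC105284492, which went from a median of 359 CPM (279 to 638) to 232 (186 to 453), by -0.68 ± 0.05 (adjusted p 1.12e-22). With DESeq2 size factors array 13 had 0 rises, and with library totals 4.

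Whether the genotype difference itself changed with age was tested in the same fit. Of 83 members, 9 were called. The M minus B difference was higher at day 8 for 5 of them and lower for 4, against a background of 6.39% (3.85% higher and 2.55% lower). Of these 9 calls, 2 were made in each of 9 fits that left out 1 outlying library. Without the 9 outlying libraries 1 of 82 members was called, and without BinB day 1 replicate 9 alone there were 3. That library and MinB day 8 replicate 8, whose removal left 5, are those farthest from the others of their age. The shares over all genes in these fits are not given here, and the counts are not read as particular to the members.

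LOC105284683 of array 17 had the lowest p. Its medians were 2.55 CPM in B (1.79 to 4.65) and 3.07 in M (1.61 to 4.67) at day 1, and 4.60 in B (3.58 to 9.12) and 3.59 in M (0.718 to 5.69) at day 8. B brains rose more with age than M brains. The difference was -0.72 ± 0.17 on the log2 scale (adjusted p 0.0115).

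LOC105284499 of array 13 had medians of 31.6 in B and 34.2 in M at day 1, and 30.3 and 39.9 CPM at day 8, a difference of 0.29 ± 0.08 (adjusted p 0.019). Without BinB day 1 replicate 9 it was 0.25 with an adjusted p of 0.0602. LOC105283564 of array 8 had medians of 1.22 in B and 0.816 in M at day 1, and 0.0614 and 0.237 CPM at day 8, a difference of 2.50 ± 0.67 (adjusted p 0.0207). Without the 9 outlying libraries it was 1.84 with an adjusted p of 0.125. Exons of LOC105283564 and its neighbour LOC113561402 overlap each other on the same strand.

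The last comparison asked whether the lineage of the social environment, M against B, affected the members. None of 77 tested members was called at day 1, where 0.0102% of all tested genes were, and none of 71 at day 8, where the background was 0.0%. In edgeR's quasi-likelihood test, 7 of the 77 members had an unadjusted p under 0.05 at day 1 and 3 of the 71 at day 8. Among all tested genes 655 of 9834 had one at day 1 and 314 of 9472 at day 8. DESeq2 also called 0 and 0, with 6 and 3 members at an unadjusted p under 0.05. The median absolute log2 fold change was 0.07 in members at both ages, against 0.06 and 0.05 in all tested genes.

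The members with the lowest p were LOC105280987 at day 1 and LOC105280503 at day 8. LOC105280987 differed by -2.16 ± 0.69 (adjusted p 0.694), a value that the 1 BinB brain at 39.2 CPM enters. In DESeq2 its sign was reversed (0.69, adjusted p 0.725), and with the title number as a replicate block it was -0.32. LOC105280503 differed by -0.76 ± 0.25 at day 8 (adjusted p 0.998), with group medians of 27.4 CPM in BinB (4.42 to 77.0), 14.8 in BinM (2.83 to 27.9), 22.6 in MinB (8.90 to 57.3) and 15 in MinM (4.82 to 27.2). In both genotypes the median was lower in the M environment, and the ranges overlapped. Neither difference passed the test, and a p that misses the threshold does not show that the environments gave equal levels.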

How the data were processed

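For 96 libraries of single brains, the authors deposited raw counts by gene in 1 table, beside exon positions, strands and lengths. Per the labels, Tri reagent was used for extraction and a KAPA stranded mRNA kit for the libraries. Reads were aligned with STAR 2.7.8a and counted with featureCounts, per the submitters' processing notes. The sources used here do not give the strand setting, how multiply aligned reads were treated, or the genome build. Spans of the 13553 features other than tRNA genes equal those of the Obir_v5.4 RefSeq annotation (100%), which gave chromosome numbers and gene classes. Coordinates are those of the deposited table.

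Library totals of 10.7 to 26.96 megacounts set the precision of low genes. Levels are CPM with TMM scaling in edgeR 4.0.16 (R 4.3.3), and RPKM from the deposited lengths. Tests were edgeR's quasi-likelihood F test with the filterByExpr filter (minimum count 10), robust dispersion and Benjamini-Hochberg adjustment over all genes tested, called at 0.05: 9834 genes at day 1, 9472 at day 8 and 10056 in the 8-group fit of age and genotype by age. SEs were derived from the F statistics. Intervals and floors cover counting error only. The procedure was tested on simulated data.

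The members and the comparison runs of 4 to 6 genes were chosen with earlier results of these data known. Genes were named by rule: the member of each array with the highest mean RPKM; members called for genotype at both ages with the same sign; the 5 largest called rises and falls with age at a mean of at least 1 CPM; the 3 lowest p of genotype by age, and for environment the lowest; and the 3 largest ratios of the highest to the next library. Members named beside these, to complete an array, were chosen after their values were seen, as were the comparisons of exon number, adjacent directions and exon overlap. Outlying libraries had a median correlation with others of their age more than 3 scaled median absolute deviations below that age's median. Alternatives were other scalings and filters, DESeq2 1.42.0, libraries left out, a replicate block and other array rules.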

Additional observations from a re-analysis of the deposited data

Results flagged for a closer look

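Values of the named members were compared within the groups of 4 to 10 brains, all of them B groups, and 17 of 70 sets of values held 1 brain far from the rest of its group. Chance gives about 1 such set in 20 for independent sets of normal values and genes chosen without regard to single brains, which does not hold here. CPM was not transformed, every such brain was at the high end, and the sets share brains. BinB day 1 replicate 2 held the values of LOC105280987 and LOC105283568, and BinB day 8 replicate 3 those of LOC105280503, LOC105283564 and LOC105283567. BinB day 8 replicate 6 held those of LOC109611257 and LOC105280987. LOC105283567, LOC105283568 and LOC109611257, with 6 of the 17 sets, were named for a high single library, and in LOC113562844, with 2 more, any count among zeros stands apart. In array 8, LOC105283568 stood at 34 CPM in 1 BinB brain of day 1 (next 8.57) and at 3.85 in 1 BinB brain of day 8, LOC105283567 at 21.5 in 1 BinM brain of day 1 (next 7.81) and at 8.18 in 1 BinB brain of day 8, LOC109611257 at 11.9 in 1 BinB brain of day 1 and 7.22 in 1 of day 8, and LOC105283564 at 0.62 in 1 BinB brain of day 8. In array 10, LOC105280987 stood at 39.2 CPM in 1 BinB brain of day 1 (next 0.143), at 39.7 in 1 BinB brain of day 8 (next 7.13) and at 34.1 in 1 BinM brain of day 8 (next 16.5). In array 22, LOC105280503 reached 77.0 CPM in 1 BinB brain of day 8 (next 40.6), and LOC105280507 reached 10.4 in 1 BinM brain of day 1 and 3.1 in 1 of day 8. The remaining values were 0.487 CPM for LOC105277289 and 9.12 CPM for LOC105284683, each in 1 BinM brain of day 8, and 0.0791 and 0.0539 CPM for LOC113562844 in 1 BinB and 1 BinM brain of day 8, where all other brains of those groups were at 0.

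Genotype differences of 3 named members differed between ages in edgeR's quasi-likelihood test of that difference. They were LOC105283564 with 2.5 (adjusted p 0.0207), LOC105284499 with 0.29 (adjusted p 0.019) and LOC105284683 with -0.72 (adjusted p 0.0115), on the log2 scale. All 3 were named for the lowest p of this same contrast, so the flag adds no separate result. As given above, LOC105284499 lost its call without BinB day 1 replicate 9, and LOC105283564 without the 9 outlying libraries.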

How the results depend on the processing

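Of 25 values of named members, 21 kept direction and call under every alternative run in which the member was tested. Runs whose filter removed a member were not counted for it. A value not called in the main fit was counted as kept if it stayed uncalled with the same sign. LOC105280987 reversed for environment at day 1 in DESeq2 (0.69). With a stricter filter (10 CPM), fewer members could be tested, and 8 were called for genotype at day 1, 7 at day 8, 32 for age and 5 for genotype by age. These counts stand without the share over all genes under that filter and are not read as a difference. With no filter 1 was called for environment at day 1. With arrays of 6 or more genes, 152 members were detected, 103 of them were called for age, and 26 were called for genotype at day 1. With 8 or more genes, 42 were detected and 31 of them were called for age. For genotype 8 were then called at day 1 and 4 at day 8. A gap of 5000 bases gave 25 for genotype at day 1. These counts move with the size of the set. Over all tested genes the shares called stayed 14.8% for genotype at day 1, 8.45% at day 8 and 73.1% for age. Genotype by age gave 1 without the outlying libraries, 3 without BinB day 1 replicate 9 and 5 without MinB day 8 replicate 8, and the cause was not tested. Leaving out 1 library gave 11 to 19 calls for genotype at day 1 and 15 to 17 at day 8, and leaving out 1 outlying library 55 to 58 for age and 3 to 10 for genotype by age. For fits with libraries left out, the share over all genes is not given here, and the counts are not read as particular to the members.

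With the title number as a replicate block, 6 members were called for genotype at day 1 and LOC105280507 had -0.52 (adjusted p 0.116). The share of all genes called with the block is not given here, so this count is not read as particular to the members. Libraries of the same number in different groups correlated in their deviations with a median of 0.0473 over 52 pairs (-0.463 to 0.596). Those of different numbers had a median of -0.00298. These medians cannot decide whether a number marks a shared block for some of the pairs. Titles of day 8 carry no number within a group, and no block was run there. Depth limits statements on the members under 1 CPM.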
